A study of Mus musculus with 6 samples.

Results

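The 4 Dppa genes measured here, Dppa2, Dppa3, Dppa4 and Dppa5a, and Morc1, the gene that follows Dppa4 and Dppa2 on chromosome 16, were followed in mouse embryonic stem (ES) cells that lack Dppa4. The members were all probe sets whose platform gene symbol was exactly one of these 5 names, which gave 5 of the 18193 genes with a probe set of their own and 6 of the 45037 probe sets tested. Dppa2 had 2 probe sets and each other gene had 1; no probe set was shared between a member and another gene, and 0 probe sets carried the name Dppa1. The knockout group was 3 arrays of 1 Dppa4 knockout ES cell line (CI#243.12), and was set against 3 arrays of the hemizygous line it was derived from (CI#84.2), which keeps 1 copy of the gene. Both groups thus share the loss of 1 copy, no line with both copies was analysed here, and each genotype is represented by a single line. The cultures of both lines also held mouse embryonic fibroblasts as feeder cells, and RNA of these fibroblasts is part of every sample. Apart from the feeder cells, no culture detail, passage, sex or strain is given for the samples. The labels do not say that the numbered replicates were separate cultures, so p-values reflect the spread between arrays, which may be technical only.

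The Dppa (developmental pluripotency associated) genes were named together because they are expressed like Oct4 in pluripotent cells, not because they all share a sequence. Dppa2 and Dppa4 are related proteins with a SAP domain, a DNA-binding fold; they bind each other and sit on chromatin, and their genes lie side by side. Dppa3, also called Stella or PGC7, is a maternal factor that protects DNA methylation in the early embryo and marks primordial germ cells. Dppa5a, also called Esg1, has a KH domain, a fold known for RNA binding. Morc1 encodes an ATPase of the MORC family that is required in mouse male germ cells, where it acts in silencing of transposable elements. The comparison asks what the loss of the last Dppa4 copy does to the targeted gene, to its partner and neighbours, and to the rest of the family.

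Values are RMA expression levels (robust multi-array average) on a log2 scale, so that a difference of 1 is a doubling. A change is always knockout minus hemizygous. A probe set was called where its adjusted p (limma, Benjamini-Hochberg over all 45037 probe sets) was under 0.05. The background level was 3.78, taken from probe sets of odorant and pheromone receptor genes. All 6 probe sets lay above it on every array. Across the table, array pairs correlated at 0.9936 to 0.9967 and array medians were 4.21 to 4.25. ES cell genes were present in both groups: all 20 measured pluripotency regulators lay above background, and their mean was 9.86 ± 0.03 in knockout and 9.97 ± 0.06 in hemizygous samples (SD, n = 3 each). This mean was lower on every knockout array than on every hemizygous array (exact permutation p = 0.1, the smallest that 3 arrays against 3 can give).

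Of the 6 probe sets, 1 was called, that of Dppa4. Of all probe sets, 0.402% were called in either direction, 0.333% lower and 0.0688% higher. Dppa2, its partner, and Morc1 stayed at high levels in the knockout cells. Dppa3 read lower on all 3 knockout arrays without passing the test, and Dppa5a differed by less than 0.1. Groups did not overlap for 4 of the 6 probe sets (Dppa4, Morc1, Dppa3 and Dppa5a), against 14.2% of all probe sets.

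**Figure D1:**
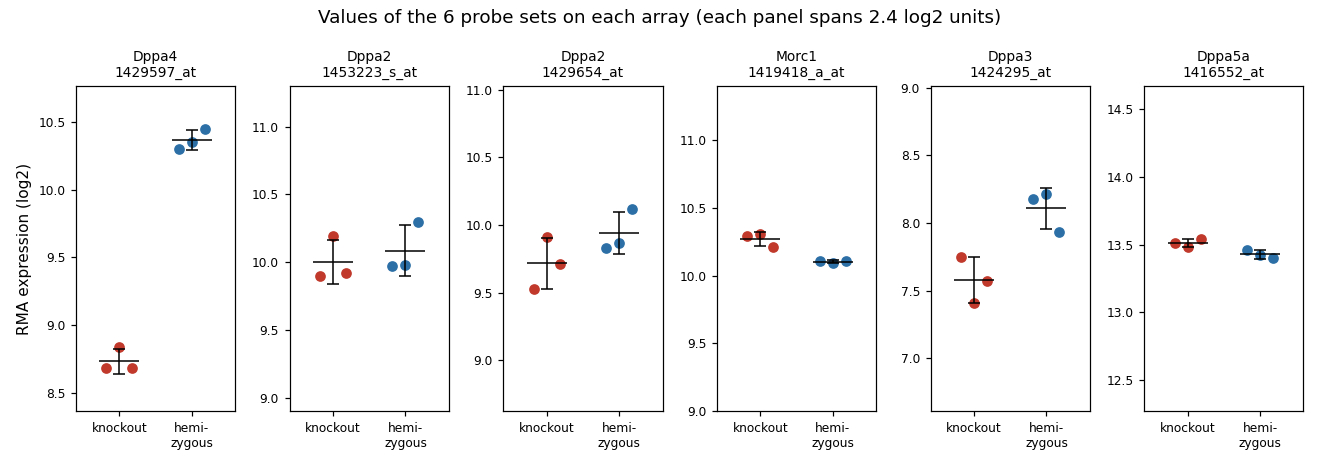
RMA expression (log2) of the 6 probe sets on each array, with knockout arrays in red and hemizygous arrays in blue; the horizontal line is the group mean and the bar its SD (n = 3). Dppa4 lies between 8.68 and 8.84 on knockout arrays and between 10.30 and 10.45 on hemizygous arrays, while the groups overlap on both Dppa2 probe sets.

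Dppa4 (probe set 1429597_at) read 8.68, 8.84 and 8.68 in the knockout samples, against 10.30, 10.35 and 10.45 in the hemizygous samples. Every knockout array was more than a log2 unit below every hemizygous array. The means were 8.73 ± 0.09 in knockout and 10.37 ± 0.08 in hemizygous cells (SD, n = 3 each), a change of -1.63 (SE 0.08, adjusted p = 0.000112, limma). The knockout signal was 32.2% of the hemizygous signal, with a 95% interval of 28.3% to 36.7%. The exact two-sided permutation p was 0.1, the smallest that 3 arrays against 3 can give. By size, the change ranked 26 among all probe sets, and by p it ranked 10.

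The signal that remained in knockout cells was well above the background level of 3.78. Where the probes lie relative to the deleted part of the gene is not given in the sources used here. The value therefore checks the labels by its direction only, and the source of the remaining signal was not tested. Its spread within groups was small: 27.4% of all probe sets had a smaller pooled SD than Dppa4. Under 13 of 14 other settings the fall stayed called, and without any 1 array it was -1.69 to -1.59. It was not called when each probe set was tested without moderation of its variance (adjusted p = 0.0956), a test that called 1 probe set in the whole table.

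Dppa2, the binding partner of Dppa4, did not pass the test on either probe set. On 1453223_s_at it read 9.90, 10.19 and 9.92 in knockout samples, against 9.97, 9.98 and 10.30 in hemizygous samples. On 1429654_at the values were 9.53, 9.91 and 9.71 in knockout and 9.83, 9.87 and 10.12 in hemizygous samples. The groups overlapped on both. The first changed by -0.08 (SE 0.12, 95% interval -0.35 to 0.19, adjusted p = 0.890, limma). The second changed by -0.22 (SE 0.12, 95% interval -0.50 to 0.05, adjusted p = 0.622). In percent of the hemizygous signal, these intervals run from 78.2% to 114% and from 70.9% to 104%, so the data leave room for a fall of up to about 29.1% on the second probe set. The ending s_at marks probes that may recognise more than 1 transcript, and both probe sets were designed on the same RNA sequence record.

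The direction on 1453223_s_at rested on 1 array. Without hemizygous replicate 3 it changed by 0.03 (adjusted p = 0.979), and with the mean level of feeder genes as a covariate 1453223_s_at and 1429654_at changed by 0.19 and 0.07 (adjusted p = 0.766 and 0.931). Averaged over both probe sets, the change was -0.15 (adjusted p = 0.718).

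Morc1 (1419418_a_at) read 10.29, 10.31 and 10.21 in knockout samples, against 10.11, 10.09 and 10.11 in hemizygous samples. Each knockout array lay above each hemizygous array, by 0.10 or more. The means were 10.27 ± 0.05 and 10.10 ± 0.01 (SD, n = 3 each), a change of 0.17 (SE 0.07, 95% interval 0.01 to 0.33), which is 112% of the hemizygous signal. With an unadjusted p of 0.0444 and an adjusted p of 0.514 (limma), it was not called. The hemizygous values were nearly identical, and 3.52% of all probe sets had a smaller pooled SD. The direction was the same under all 14 other settings, with changes of 0.15 to 0.20 and adjusted p of 0.285 to 0.744.

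**Figure D2:**
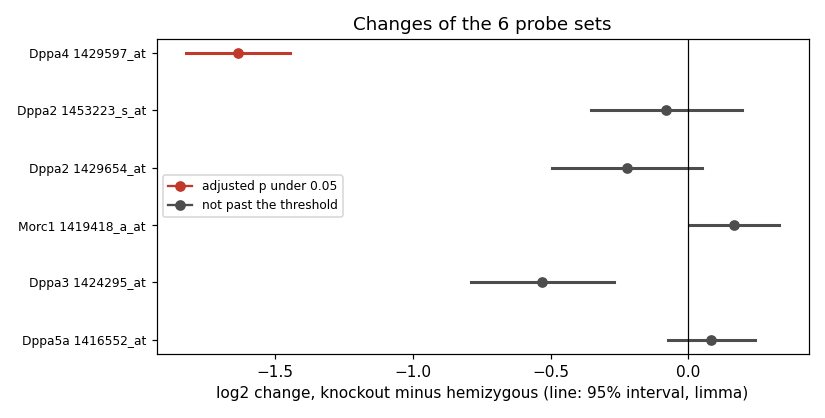
Change of each probe set, knockout minus hemizygous, in log2 units; points are the limma estimates and lines their 95% intervals, red where the adjusted p was under 0.05. Only the interval of Dppa4 lies below -1; those of both Dppa2 probe sets and of Dppa5a include 0.

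Dppa3, the maternal and germ cell factor, read 7.75, 7.41 and 7.57 in knockout samples, against 8.18, 8.21 and 7.93 in hemizygous samples (1424295_at). All knockout arrays lay below all hemizygous arrays. The means were 7.58 ± 0.17 and 8.11 ± 0.15 (SD, n = 3 each), a change of -0.53 (SE 0.11, 95% interval -0.79 to -0.27), or 69.3% of the hemizygous signal. The unadjusted p was 0.00145 and the adjusted p 0.143 (limma), so Dppa3 did not pass. Its change ranked 363 by size and 454 by p among the 45037 probe sets. It kept its direction under all 14 other settings, at -0.82 to -0.45, and was called under none (adjusted p 0.0730 to 0.437).

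Dppa5a, the KH-domain gene, read 13.51, 13.48 and 13.54 in knockout samples, against 13.46, 13.42 and 13.40 in hemizygous samples (1416552_at). The knockout arrays lay just above the hemizygous ones. The means were 13.51 ± 0.03 and 13.43 ± 0.03 (SD, n = 3 each), a change of 0.08 (SE 0.07, 95% interval -0.08 to 0.24, adjusted p = 0.781, limma). This interval corresponds to 94.9% to 118% of the hemizygous signal. The values lie close to the highest of the table, 13.98, and 30 probe sets had a higher mean; whether the signal was compressed at this level was not tested. The gene table used for names lists the pseudogenes Dppa5b and Dppa5c, and Dppa3-ps for Dppa3, and whether the probes also match these could not be checked without probe sequences.

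The 6 probe sets differed in how they spread within groups. The pooled SD was 0.17 and 0.18 for the Dppa2 probe sets 1429654_at and 1453223_s_at and 0.16 for Dppa3, against 0.08 for Dppa4, 0.04 for Morc1 and 0.03 for Dppa5a. The median over all probe sets was 0.12. Knockout replicate 2 and hemizygous replicate 3 were the arrays on which both Dppa2 probe sets and Dppa4 were highest in their group and Dppa3 was lowest. Dppa2 (1453223_s_at) lay 0.19 and 0.22 above its group mean there, and Dppa3 lay 0.17 and 0.18 below its own. The mean of the feeder genes was also lowest in its group on these arrays, 0.08 and 0.04 below the group mean. On hemizygous replicate 1 it lay nearly as low (-0.03). The feeder genes did not move together. Col1a1, Col1a2, Col3a1, Col5a2 and Postn were highest in their group on both arrays, and Dcn, Thy1, Lox and S100a4 were lowest. Lum and Pdgfrb followed neither pattern. The part of the feeder cells in this spread was not tested beyond the covariate fit above, which used this same mean.

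**Figure D3:**
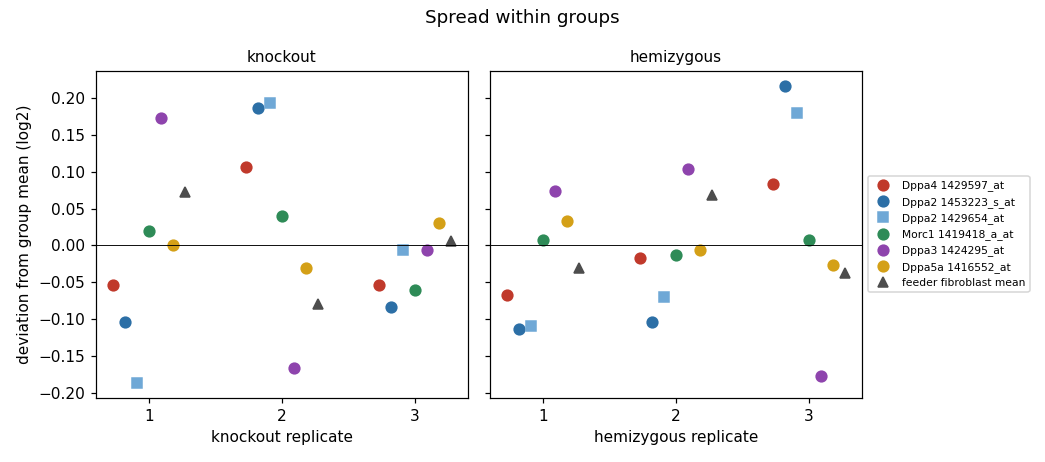
Deviation of each probe set, and of the mean of 11 feeder fibroblast genes, from its group mean (log2), by array; colours mark the probe sets and triangles the feeder genes. On knockout replicate 2 and hemizygous replicate 3, both Dppa2 probe sets lie high and Dppa3 lies low.

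Feeder genes were measured beside the members, and all 11 measured fibroblast genes lay above background. Their mean was 11.45, 11.30 and 11.38 in knockout samples and 11.20, 11.30 and 11.19 in hemizygous samples (exact permutation p = 0.2). By limma 0 of the 11 were called, and 2 were higher and 0 lower at an unadjusted p under 0.05. At that threshold 4.66% of all genes were higher and 6.37% lower. The changes of the 11 ran from 0 to 0.27, so that no feeder gene read lower in knockout samples. Their median was 0.12, and 0.27 without knockout replicate 2, against 0 over all genes. Pdgfrb, a growth factor receptor gene, had the smallest p of the list, with a log2 change of 0.27 (adjusted p = 0.439). In such mixed samples, fewer ES cells and less RNA per ES cell cannot be told apart. Endoderm genes were likewise not called (0 of 7, by limma, and 0 at an unadjusted p under 0.05), with Dab2, a cargo adaptor gene of endoderm, at 0.25 (adjusted p = 0.682).

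The chromosomal neighbours of the members did not pass the test. For each locus, these were the nearest 5 named and measured genes on either side, and for chromosome 16 also Gm5485, which lies between Dppa2 and Morc1. Of 11 neighbours of the Dppa4 locus 0 were called by limma, with 1 lower and 0 higher at an unadjusted p under 0.05, and the median change was -0.06. This median was -0.02 without hemizygous replicate 1 or 3, -0.04 without knockout replicate 1 or 3, -0.10 without knockout replicate 2, -0.13 over genes above background and -0.17 with the feeder covariate. In the whole table, 0.605% of genes were called, each gene read by its brightest probe set, and the median change over all genes was 0.0. On the Dppa4 side the nearest gene was 6430553K19Rik (0.02, adjusted p = 0.958) and on the Morc1 side Trat1 (0.02, adjusted p = 0.970), both below background in both groups, as was Gm5485 (-0.03, adjusted p = 0.965). The neighbour with the smallest p was Nectin3, a cell adhesion gene, at 8.29 ± 0.10 in knockout and 8.53 ± 0.08 in hemizygous samples (SD, n = 3 each), a change of -0.24 (adjusted p = 0.407).

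Dppa3 lies on chromosome 6 between Gdf3, a growth factor gene of the TGF-beta family, and Nanog, a central pluripotency factor. Nanog read 10.47, 10.25 and 10.51 in knockout samples, against 10.97, 10.96 and 10.76 in hemizygous samples. Gdf3 read 8.61, 8.78 and 8.80 in knockout samples, against 9.11, 9.10 and 9.08 in hemizygous samples. On these probe sets the groups did not overlap, as for Dppa3 and for 14.2% of all probe sets. On the other probe set of Gdf3 (6.80, 7.04 and 6.87 in knockout samples, against 7.20, 7.23 and 7.0 in hemizygous samples) they did overlap, with a change of -0.24 (adjusted p = 0.490). Nanog changed by -0.49 (SE 0.10, adjusted p = 0.122, limma) and Gdf3 by -0.37 (SE 0.08, adjusted p = 0.148), and neither passed. Nanog passed with a prior variance both trended on intensity and robust (adjusted p = 0.0266). Of the 10 neighbours of this locus 0 were called, these 2 were the ones lower at an unadjusted p under 0.05, 0 were higher, and the median change was -0.08 (-0.25 with the feeder covariate). Slc2a3, the glucose transporter gene next to Nanog, changed by -0.21 (adjusted p = 0.571).

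Around Dppa5a on chromosome 9, 0 of 10 neighbours were called by limma, with 2 lower and 0 higher at an unadjusted p under 0.05. Ooep, a KH-domain gene of the oocyte, changed by -0.08 (adjusted p = 0.870) and Gsta2, a glutathione transferase gene below background, by 0.20 (adjusted p = 0.659). Ddx43, an RNA helicase gene, read 5.17, 5.37 and 5.05 in knockout samples, against 5.72, 5.81 and 5.80 in hemizygous samples. Its change of -0.58 (SE 0.10) just missed the threshold, with an adjusted p of 0.0554. It passed under 3 of the alternatives, among them without knockout replicate 2 (adjusted p = 0.0396) and with the trended and robust prior (0.0448). The other of the 2 was Mto1, a mitochondrial tRNA modification gene (-0.24, adjusted p = 0.296).

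**Figure D4:**
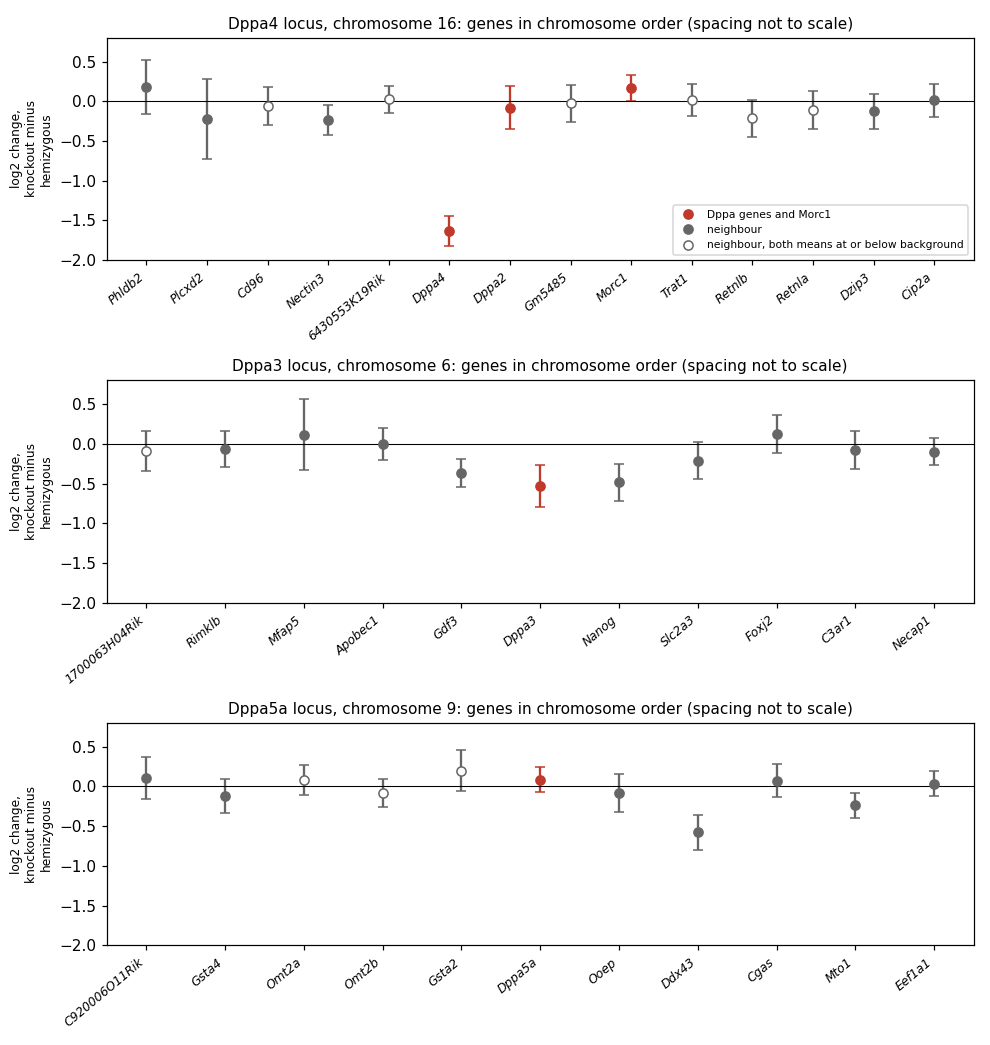
Change (log2, knockout minus hemizygous) of the members, in red, and of their measured neighbours, in grey, in chromosome order with spacing not to scale; points are limma estimates, bars 95% intervals, and open points lie at or below background in both groups. Dppa4 at -1.63 is the 1 gene called by limma at its locus, while Dppa3 lies between Gdf3 at -0.37 and Nanog at -0.49.

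The members were also set beside genes with which they share a history, a fold or a function. The ES cell-associated transcripts (ECAT) are genes found by their expression in ES cells, and Dppa2, Dppa4 and Dppa5a are among them. Of 10 measured, 1 was called lower (Dppa4) and 1 higher, and 8 did not pass; over all genes 0.511% were called lower and 0.0934% higher, and the list's median change was -0.22 (-0.09 with the feeder covariate). The gene that rose was Dnmt3l, which encodes a partner protein of the de novo DNA methyltransferases and which read 11.09, 11.24 and 10.94 in knockout samples, against 10.50, 10.42 and 10.40 in hemizygous samples. Its change was 0.65 (SE 0.09, adjusted p = 0.0318, limma). The call was lost without hemizygous replicate 1 (adjusted p = 0.115), 2 (0.123) or 3 (0.130) and without knockout replicate 1 (0.147) or 2 (0.0782). It was also lost with the feeder covariate (0.263), with the replicate number as a block (0.122) and without moderation (0.274).

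The other ECAT genes did not pass. At an unadjusted p under 0.05, 5 of the 10 were lower, Dppa4 included, and 1 higher, against 6.37% lower and 4.66% higher over all genes. Fbxo15, an F-box gene and Oct4 target, read 10.43 ± 0.17 in knockout and 11.00 ± 0.16 in hemizygous samples (SD, n = 3 each), a change of -0.57 (adjusted p = 0.119). Eras, a Ras family gene of ES cells, changed by 0.03 (adjusted p = 0.957) and Sox15 by 0.17 (adjusted p = 0.663).

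Among genes of the KH family of Dppa5a, 0 of 5 measured were called by limma and 1 was lower at an unadjusted p under 0.05. This was Khdc3, an oocyte and ES cell gene also called Filia, which belongs to the ECAT genes too. It read 7.65, 7.92 and 7.72 in knockout samples, against 8.52, 8.51 and 8.23 in hemizygous samples, a change of -0.66 (SE 0.11, adjusted p = 0.0596). It passed with the trended and robust prior variance (adjusted p = 0.0200) and in the fit of gene averages (0.0350). No other Khdc3 probe set entered that average, and its change there was the same, -0.66. Khdc1a and Khdc1b lay below background in both groups.

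In the MORC family of Morc1, 0 of 5 were called by limma, with 1 higher at an unadjusted p under 0.05, Morc1 itself. Morc2a, a gene of the HUSH silencing pathway, changed by -0.02 (adjusted p = 0.954), Morc3 by -0.07 (adjusted p = 0.869) and Morc4 by -0.05 (adjusted p = 0.921). Morc2b lay below background.

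The list of Dppa3 partners holds Uhrf1 and Dnmt1, of maintenance DNA methylation, and the Tet genes, whose enzymes oxidise methylated cytosine. By limma 0 of its 5 genes were called, and 1 was lower at an unadjusted p under 0.05. This was Tet1, which read 9.68, 10.01 and 9.70 in knockout samples, against 10.17, 10.03 and 10.21 in hemizygous samples, a change of -0.34 (adjusted p = 0.350). Uhrf1 changed by -0.04 (adjusted p = 0.927) and Dnmt1 by -0.08 (adjusted p = 0.864). Of the 20 pluripotency regulators 0 were called by limma, with 5 lower and 0 higher at an unadjusted p under 0.05 (6.37% and 4.66% over all genes). Their median change was -0.07, and -0.04 without hemizygous replicate 2. Nanog had the smallest p of this list.

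Dppa2 and Dppa4 are known as activators of genes of the 2-cell-like state of ES cells. Of 18 such genes listed, 7 had a probe set of their own and 3 of these lay above background in either group. Of the 7, 2 were called lower, 0 were called higher and 5 did not pass, against 0.511% called lower and 0.0934% called higher over all genes. The median change was -0.35, and -0.94 over the 3 genes above background. The second median is the change of Zfp352 alone, which was not called (adjusted p = 0.0774, limma). Its other probe set changed by -0.55. Usp17la was among the 3 only through its hemizygous values, so the filter itself partly set the second median. Usp17la, a deubiquitinase gene, read 3.15, 2.96 and 2.86 in knockout samples, all below background, against 5.87, 5.94 and 6.42 in hemizygous samples, and was at least 4.90-fold lower (adjusted p = 0.000106). Tcstv3 was called lower (-0.65, adjusted p = 0.00887) although it lay below background in both groups, and lost its call without hemizygous replicate 1 (adjusted p = 0.0589) or knockout replicate 1 (0.0549), and with the feeder covariate (0.257). Without moderation neither was called (adjusted p = 0.117 for each). Duxf3, the gene of the transcription factor Dux, also lay below background in both groups.

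**Figure D5:**
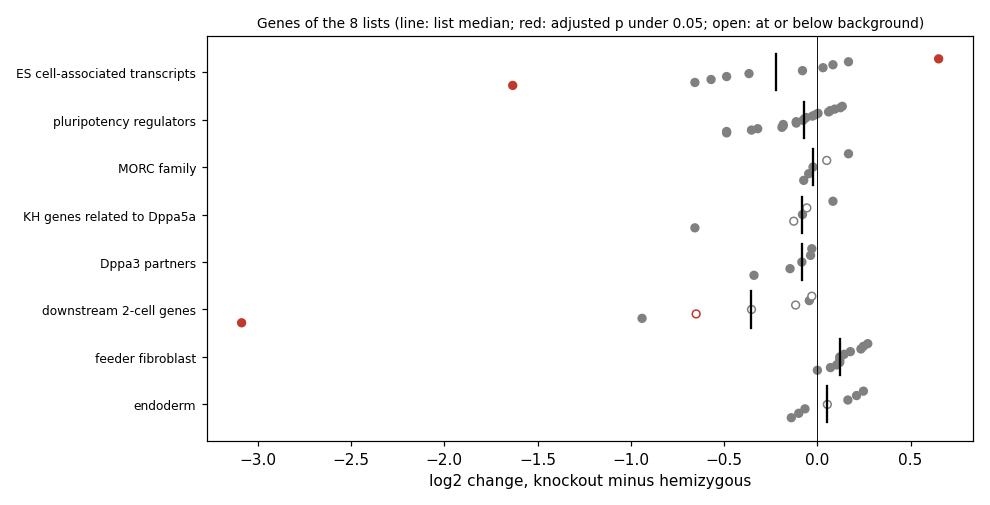
Change (log2, knockout minus hemizygous) of each measured gene of 8 lists, each gene read by its brightest probe set; black lines are list medians, red points passed the test and open points lay at or below background in both groups. Dppa4 at -1.63, Dnmt3l at 0.65, Usp17la at -3.09 and Tcstv3 at -0.65 are the 4 genes that passed.

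The genes whose values followed each member over the 6 arrays were taken from 2889 genes. Their higher group mean lay above background and their range was at least 0.5, so a gene could enter through 1 group alone. For Dppa4 they were Mael, a gene of the piRNA pathway (r = 0.9993), Gm20767 (0.9959) and Ttpa, a vitamin E transfer protein gene (0.9955). All 3 were called lower in knockout cells, with changes of -3.44, -4.28 and -1.43. Close matches to Dppa4, which itself differed between the groups, were bound to be lower too, so these falls are no separate result. For Morc1 they were Adat2, a tRNA deaminase gene (r = 0.9880), Dnmt3l (0.9864) and 5730507C01Rik (0.9734), of which the last 2 were called higher, by 0.65 each. For Dppa3 they were Stk26, a kinase gene (r = 0.9982), C730049O14Rik (0.9944) and Pstpip1 (0.9907), with changes of -0.81, -0.36 and -0.35 that did not pass. For Dppa2 they were Tlcd1 (r = 0.9817), Nepro (0.9728) and Firre (0.9727), and for Dppa5a they were Triqk (0.9737), Thtpa (0.9651) and Cryzl1 (0.9647), none of them called. With 6 arrays in 2 groups, any gene that differs between the groups follows a member that does. For such members these correlations are a description over arrays that share the group difference. The groups overlapped for Dppa2 (change -0.08, pooled SD 0.18 on 1453223_s_at). Its correlations therefore describe mostly the spread between arrays within groups.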

How the data were processed

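Per the labels' protocols, total RNA of 6 samples was labelled by an Affymetrix protocol and measured on arrays. The authors deposited log2 expression values per probe set, made by RMA per the submitters' processing notes; the log2 scale was read from the values (2.12 to 13.98), and the sources used here do not give the RMA settings. Since RMA equalises distributions between arrays, a shift shared by most transcripts would not show. Of 45101 probe sets, 64 controls were left out. Names came from the platform annotation, updated through a RefSeq gene table of GRCm38.p6, which matched 34741 of 34945 single-gene probe sets.

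The test was limma's (version 3.58.1, R 4.3.3; eBayes after lmFit, two-sided, without covariates), with figures and counts made in Python 3.11.15. The background level is the 95th percentile of the means of 80 receptor probe sets. For a group with no array above it, a fold is a bound set against it. List genes were named where they passed, or else by smallest unadjusted p, and others were chosen after their values were seen. Members and lists were chosen with earlier results of these data known. On simulated data for this comparison over 45037 probe sets, 85.2% of log2 changes of 1 and 99% of changes of 2 were recovered. Over the 5 runs there were 30 false calls. Changes as small as those of the uncalled members were not simulated, nor was spread shared between probe sets. The number of arrays limits the precision. No 2 arrays held identical values. Alternatives were a second quantile normalization, median centring, the replicate number as block, a trended and robust prior variance, filters on dim and on x_at and s_at probe sets, no moderation, gene averages, a feeder covariate and leaving out each array.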

Additional observations from a re-analysis of the deposited data

How the results depend on the processing

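Dppa3, Dppa5a and Morc1 kept their direction and stayed uncalled under all 14 alternatives each, and Dppa4 kept its direction under all 14. Dppa4 lost its call without moderation (-1.63, adjusted p = 0.0956). Leaving out 1 array gave -1.69 to -1.59 for Dppa4, -0.62 to -0.45 for Dppa3, 0.15 to 0.20 for Morc1, 0.07 to 0.10 for Dppa5a, -0.32 to -0.13 for Dppa2 on 1429654_at and -0.17 to 0.028 on 1453223_s_at, the last value being the reversal without hemizygous replicate 3. With the feeder covariate Dppa2 reversed to 0.067 on 1429654_at and 0.19 on 1453223_s_at. In that fit Dppa3 changed by -0.82, Dppa4 by -1.52, Morc1 by 0.19 and Dppa5a by 0.07. The 181 called probe sets became 88 with the replicate number as a block (81 shared), 312 with an intensity trend and robust prior, 24 (all shared) given the feeder covariate, 1 without moderation (0 shared), and between 70 and 112 on leaving out an array. The 82 called with a change of at least 1 became 24 given the feeder covariate, 0 without moderation (95 at an unadjusted p under 0.05), and between 54 and 73 on leaving out an array. The 4 called list genes became 9 with the intensity trend and robust prior together, 2 given the feeder covariate, and between 2 and 4 on leaving out an array. Without moderation none of the 4 stayed called. The labels give no pairing of same-numbered arrays, whose deviations correlated at 0.112, -0.364 and -0.287. The highest correlations were 0.379, for knockout replicate 2 with hemizygous replicate 3, and 0.371, for knockout replicate 3 with hemizygous replicate 2. A block by replicate number does not take up these. With the block Dppa4 stayed called (adjusted p = 0.00611), while Dnmt3l (0.122) and Tcstv3 (0.0721) did not. Where a call was lost, the cause was not tested. Fewer arrays or residual degrees of freedom enter the block fit, the feeder covariate fit and the fits that left out 1 array. The fit without moderation uses no prior variance.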

Other observations

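The probe sets of Dppa2 differed from each other by more in knockout than in hemizygous samples. The value of 1453223_s_at minus that of 1429654_at was 0.37, 0.28 and 0.21 in knockout samples, against 0.14, 0.11 and 0.18 in hemizygous samples. The means were 0.29 ± 0.08 and 0.14 ± 0.04 (SD, n = 3 each) and the groups did not overlap (exact permutation p = 0.1, the smallest that 3 arrays against 3 can give). This comparison was chosen after the values were seen, and no cause was tested.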
